A study of Arabidopsis thaliana with 59 samples.

Results

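Sulfate assimilation is the route by which plants turn inorganic sulfate into cysteine. ATP sulfurylase (APS) activates sulfate to adenosine 5′-phosphosulfate, adenosine 5′-phosphosulfate reductase (APR) reduces this intermediate to sulfite, and sulfite reductase and O-acetylserine lyases complete the synthesis of cysteine. SULTR2;1 is a low-affinity sulfate transporter of the vasculature. The microRNA miR395 accumulates when sulfate is short, and its known targets in Arabidopsis are mRNAs of ATP sulfurylases and of SULTR2;1.

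The genes described here are the ATP sulfurylases APS1 (AT3G22890), APS2 (AT1G19920), APS3 (AT4G14680) and APS4 (AT5G43780), the reductases APR1 (AT4G04610), APR2 (AT1G62180) and APR3 (AT4G21990), the transporter SULTR2;1 (AT5G10180) and the microRNA locus MIR395a (AT1G26973). These 9 genes were chosen by name from the 32375 genes that have values, and all 9 were found. The value of a gene is the number of 22-nt small RNA reads assigned to it, scaled per library. The Dicer-like enzyme DCL2 is known for making 22-nt siRNAs, and reads of this length can have other sources. The value is a level of small RNA and not of the mRNA or the enzyme.

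Arabidopsis thaliana plants spent 6 days on MS medium and then 14 days in soil, and their aerial parts were taken at an age of 20 days. There are 59 small RNA libraries from 15 genotypes, with 4 libraries in 14 genotypes and 3 in ski2-2 dcl4-2 ago1-27. Col-0 is the wild type. The single mutants are dcl2-1, dcl4-2, ein5-1 and ski2-2. In the double mutants ein5-1 or ski2-2 is joined with dcl2-1 or with dcl4-2. The triple mutants are ein5-1 dcl4-2 and ski2-2 dcl4-2, each combined with dcl2-1, ago1-27 or ago1-45. DCL4 makes 21-nt siRNAs. EIN5, also known as XRN4, removes mRNA by 5′ to 3′ decay in the cytoplasm. SKI2 is a helicase needed for 3′ to 5′ decay by the exosome. AGO1 binds microRNAs and siRNAs and acts on their target mRNAs. The labels do not give the number of plants pooled per library or the nature of the alleles, and small RNA levels do not check the mutations or the tissue against marker genes.

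The sum of all gene means was largest in ein5-1 dcl4-2 (1906260 units) and in ski2-2 dcl4-2 (967422), and ranged from 142140 to 289411 over the other 13 genotypes. A read was worth 0.33 to 4.74 units, depending on the library. Values of single libraries were recovered from the deposited means and are named A to D in rising order of the units per read, so a letter does not join libraries of different genotypes. Of the 59 libraries, 51 have a value for APR1 and for APR2 and 55 for APR3, and each of the other 6 genes has a value in all 59. APR1, APR2 and APR3 in ein5-1 dcl4-2, APR1 in ski2-2 dcl4-2 and APR2 in ein5-1 are given as the authors' means, with no SD.

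Sequences were read from the RefSeq TAIR10.1 assembly. The mature microRNA of MIR395a is shown first because it is the sequence that pairs with the sulfurylase and transporter mRNAs. MIR395a lies at chr1:9363196-9363288 on the minus strand. Capitals mark the seed, bases 2 to 8.
miR395a: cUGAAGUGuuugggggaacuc
miR395b: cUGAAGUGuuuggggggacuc
Loci MIR395a, MIR395d and MIR395e carry the first sequence, and MIR395b, MIR395c and MIR395f carry the second, with the same seed. The annotated form is 21 bases long, and the reads counted here are 22. A read of 22 bases that starts at the same 5′ end takes in the next base of the hairpin, shown in capitals.
MIR395a, MIR395d and MIR395e: cugaaguguuugggggaacucC
MIR395b, MIR395c and MIR395f: cugaaguguuuggggggacucU
Such a read therefore cannot be assigned to 1 locus of its trio, and the deposited means of MIR395a were identical to those of MIR395d in 11 and to those of MIR395e in 12 of the 15 genotypes. MIR395b and MIR395c were identical in 15 of 15. The values given below for MIR395a are in effect those of its trio. The whole MIR395a hairpin, with the mature sequence in capitals, is 93 bases long.
MIR395a hairpin: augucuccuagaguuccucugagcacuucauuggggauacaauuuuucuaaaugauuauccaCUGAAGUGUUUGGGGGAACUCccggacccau

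A site for miR395a with at most 3 mismatches was found in the coding sequence of APS1 (chr3:8113164-8113184, plus strand), APS3 (chr4:8414958-8414978, minus strand), APS4 (chr5:17591121-17591141, minus strand) and SULTR2;1 (chr5:3193268-3193288, plus strand). They are printed as the mRNA strand, with capitals where the base pairs with miR395a and lower case at a mismatch, a G:U pair counting as a mismatch.
APS1: GAGUUCCuCCAAACuCUUCAu
APS3: GAGUUCCuCCAAACuCUUCAu
APS4: GAGUUCCuCCAAACACUUCAu
SULTR2;1: aAGUUCuCCCAAACACUUCAa
The site of APS4 has 2 mismatches and the other 3 sites have 3. Of 31460 transcripts searched on the mRNA strand, one per gene, 8 (0.0254%) hold a site with 3 or fewer mismatches to miR395a or miR395b. The best match in APS2 has 8 mismatches, and the best matches to miR395a in APR1, APR2 and APR3 have 9, 8 and 10. A match is a description of the letters and does not show cleavage.

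The reductase genes share sequence with each other, which bears on their separate values. APR1 (chr4:2324878-2327064, plus strand) and APR3 (chr4:11657008-11659167, minus strand) share 59 words of 22 bases in their transcripts, APR2 (chr1:22975530-22977885, minus strand) shares 10 with APR3 and 2 with APR1, and APS1 shares 53 with APS3. The longest run common to APR1 and APR3 is 41 bases, at chr4:2326068-2326108 in APR1 and chr4:11657897-11657937 in APR3.
APR1 and APR3: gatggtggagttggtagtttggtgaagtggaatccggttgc
How the authors counted a read that maps to both genes is not given in the sources used here. MIR395b and MIR395c, which give the same 22-base read, each held 90, 58, 82 and 51 reads in ein5-1 dcl4-2 ago1-27. There a shared read was thus counted at both loci. Whether the same holds for APR1 and APR3 was not tested. APR1 has 1914 distinct words of 22 bases, of which 3.19% occur elsewhere in the genome, and the share is 0.493% in APR2 and 3.85% in APR3.

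In the wild type all 9 genes had low levels. The mean in Col-0 was 5.12 units for APR1, 4.75 for APR2, 4.45 for APR3, 17.0 for APS1, 5.51 for APS2, 2.43 for APS3, 2.78 for APS4, 2.31 for SULTR2;1 and 0 for MIR395a. These come from few reads. The Col-0 libraries A to D held 7, 8, 2 and 5 reads of APR1, 12, 1, 2 and 6 of APR2 and 2, 3, 10 and 3 of APR3. No Col-0 library held a read of MIR395a, which allows a group mean of up to 0.779 units at 3 reads over the group.

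**Figure D1:**
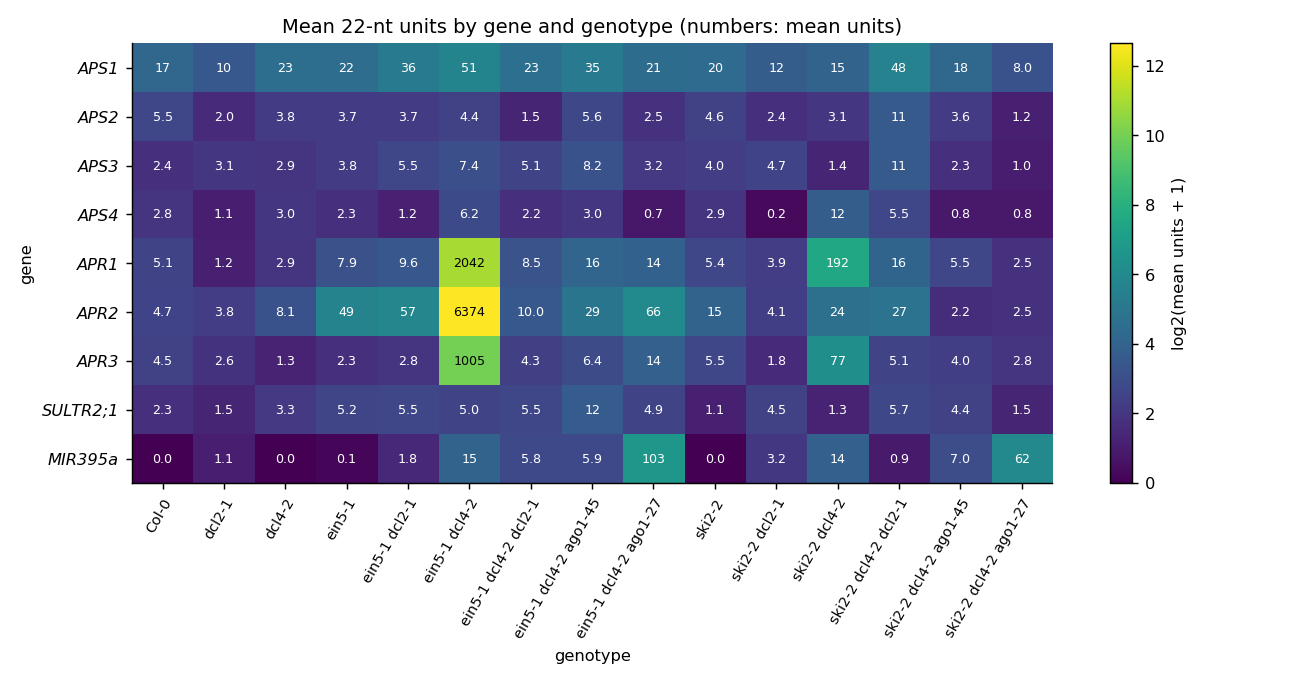
Mean 22-nt level of each of the 9 genes (rows) in each of the 15 genotypes (columns). Colour is log2(mean + 1) and the printed number is the authors' mean in units. The lightest cells are APR1, APR2 and APR3 in ein5-1 dcl4-2, at 2042, 6374 and 1005 units, and MIR395a is highest in the 2 columns with ago1-27.

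The highest means of the 9 genes over all genotypes were those of the reductases in ein5-1 dcl4-2. There the mean given by the authors was 6374 units for APR2, 2042 for APR1 and 1005 for APR3. Against Col-0, the ratio of means was 1343 for APR2, 399 for APR1 and 226 for APR3. Per kilobase of transcript, the levels in ein5-1 dcl4-2 were 3111 units for APR2, 1055 for APR1 and 563 for APR3, so APR2 led also when length is taken into account. Among 32375 genes ranked by mean in that genotype, APR2 was 39th, APR1 80th and APR3 110th, and their sum was 0.494% of all units.

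The authors' deposited table gives a log2 fold against Col-0 of 10.02 for APR2 (adjusted p = 5.58e-213), 8.32 for APR1 (adjusted p = 1.86e-153) and 7.47 for APR3 (adjusted p = 1.72e-36). The same table gives, against ein5-1, 6.74 for APR2, 7.74 for APR1 and 8.37 for APR3, and against dcl4-2, 9.31, 9.17 and 9.10. These 3 comparisons share the ein5-1 dcl4-2 libraries. In each of the last 2, limma called 2 of 6 genes higher (APS1 and MIR395a), beside 30.4% of all genes against ein5-1 and 29.4% against dcl4-2, and the deposited table called 21.9% and 19.7% of all genes higher. Centred on the median of the deposited folds, APS1 turns to -0.11 against ein5-1 and to -0.10 against dcl4-2. With microRNA loci as the scale it is 0.13 (adjusted p = 0.694) and 0.59 (adjusted p = 0.0719). Against Col-0, 5 of the 9 genes were higher and 0 lower. APR1, APR2 and APR3 were called in the authors' deposited table, in which 21.1% of 20929 genes were called higher and the median log2 fold of all genes was 1.05. APS1 and MIR395a were called by limma on the library values, by which 30.4% of 17074 genes were called higher. The 3 reductase folds lie far above the median of all genes, whereas the share of members called is read against a background in which 30.4% of genes were called.

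In ski2-2 dcl4-2 the order of the reductases was different. APR1 had a mean of 191.7 units, APR3 of 77.1 and APR2 of 24.4. The libraries A to D held 91.1, 100.2, 55.5 and 61.6 units of APR3, against 1.63, 2.83, 10.2 and 3.12 in Col-0. All 4 mutant libraries lay above all 4 wild-type libraries. On log2(units + 1), APR3 was 4.03 higher (SE 0.34, limma adjusted p = 6.33e-16). For APR2 the libraries held 32.2, 25.1, 11.7 and 28.5 units, against 9.76, 0.943, 2.05 and 6.23 in Col-0, again with no overlap, and the difference was 2.36 (SE 0.46, limma adjusted p = 6.61e-05). For APR1 the deposited mean fits 7 combinations of whole reads, so its libraries are not given. The authors' deposited table lists a log2 fold of 5.05 (adjusted p = 6.75e-47). In 6 of the 7 combinations all 4 libraries lie above the highest Col-0 library, and in the other 1 only 3 do.

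Of the 8 genes that limma tested between ski2-2 dcl4-2 and Col-0, 4 were higher (APR2, APR3, APS4 and MIR395a) and 0 lower, beside 6.58% of all genes called higher. APR1 was called in the authors' deposited table, in which 8.13% were called higher. Set directly beside each other, ein5-1 dcl4-2 had 10.7 times the mean of ski2-2 dcl4-2 for APR1, 13.04 times for APR3 and 262 times for APR2, as ratios of the authors' means. No test covers these ratios, since the libraries of the reductases in ein5-1 dcl4-2 were not recovered and the authors' table holds no such comparison.

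APR2 was higher than in Col-0 already in ein5-1, with DCL4 present. Its mean there was 48.8 units, 10.3 times that of Col-0. Its mean fits 2 combinations of whole reads, 39.0, 58.3, 51.7 and 46.2 units or 10.9, 124.7, 43.1 and 16.6 units in libraries A to D. In either case all 4 libraries lie above the highest Col-0 library, 9.76 units. A limma fit with each combination, chosen after seeing the data, gave a difference of 3.41 (SE 0.28, adjusted p = 9.86e-22) or 2.82 (SE 0.34, adjusted p = 3.31e-12) on log2(units + 1). APR1 in ein5-1 held 4.44, 8.69, 8.61 and 9.70 units, overlapping with Col-0, and APR3 held 1.98, 0.511, 2.15 and 4.57. Of the 7 genes tested between ein5-1 and Col-0 without APR2, limma called 0, with 1 higher and 0 lower at an unadjusted p under 0.05, beside 12.0% of all genes called in either direction.

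In ski2-2 the libraries held 11.3, 8.75, 26.2 and 14.5 units of APR2. Library B lies within the range of Col-0. The difference was 1.69 (SE 0.41, limma adjusted p = 0.00490), beside 0.876% of all genes called higher. It was the only 1 of the 8 genes tested that was called, and the call is lost without Col-0 library B (difference 1.28, adjusted p = 0.113) or without ski2-2 library C (difference 1.41, adjusted p = 0.126), and with a pseudocount of 0.1 (adjusted p = 0.0566). For ski2-2 dcl4-2 against ski2-2, APR2 was not called (difference 0.67, SE 0.35, limma adjusted p = 0.238), whereas APR3 rose by 3.74 (SE 0.34, limma adjusted p = 2.56e-25) and APR1 by a log2 fold of 4.97 in the authors' deposited table (adjusted p = 1.76e-42). APS4 and MIR395a were also higher there, so that limma called 3 of 8 genes beside 5.94% of all genes called higher, or 7.28% in the deposited table. The APS4 call is lost without ski2-2 library A (difference 1.34, adjusted p = 0.141), with a pseudocount of 0.1 (adjusted p = 0.113) and with microRNA loci as the scale (1.42, adjusted p = 0.0873). Against dcl4-2, limma called 4 of 8 higher, namely APR2 (difference 1.42, SE 0.38, adjusted p = 0.00408), APR3 (5.19, SE 0.41, adjusted p = 2.42e-19), APS4 and MIR395a, beside 7.88% of all genes. The authors' deposited table, which called 10.4% of all genes higher, lists 5.84 for APR1 (adjusted p = 3.48e-39). The APS4 call against dcl4-2 is lost without dcl4-2 library D (difference 1.44) or ski2-2 dcl4-2 library A (1.68), with a pseudocount of 0.1 (adjusted p = 0.0605) and with microRNA loci as the scale (0.9975, adjusted p = 0.201). With that scale the APR2 call is lost as well (0.62, adjusted p = 0.288).

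In dcl4-2 none of the 8 genes tested against Col-0 was called by limma, with 1 higher and 1 lower at an unadjusted p under 0.05 and 2.39% of all genes called. APR2 held 9.78, 5.30, 8.61 and 8.61 units there and APR3 0.889, 2.12, 0 and 2.15. In dcl2-1 limma called 0 of 8 as well, with 0 higher and 3 lower at an unadjusted p under 0.05 and 6.19% of all genes called. APR1 was at 0, 0.894, 1.25 and 2.58 units in dcl2-1, which is 4 reads in all, and the adjusted p was 0.0894. For APR3 the combination of ski2-2 and dcl4-2 exceeded the sum of both single effects, with an interaction of 4.90 on log2(units + 1) (SE 0.69, limma adjusted p = 5.27e-07), beside 3.79% of all genes called higher. For APR2 the interaction was -0.27 (SE 0.61, limma adjusted p = 0.863).

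**Figure D2:**
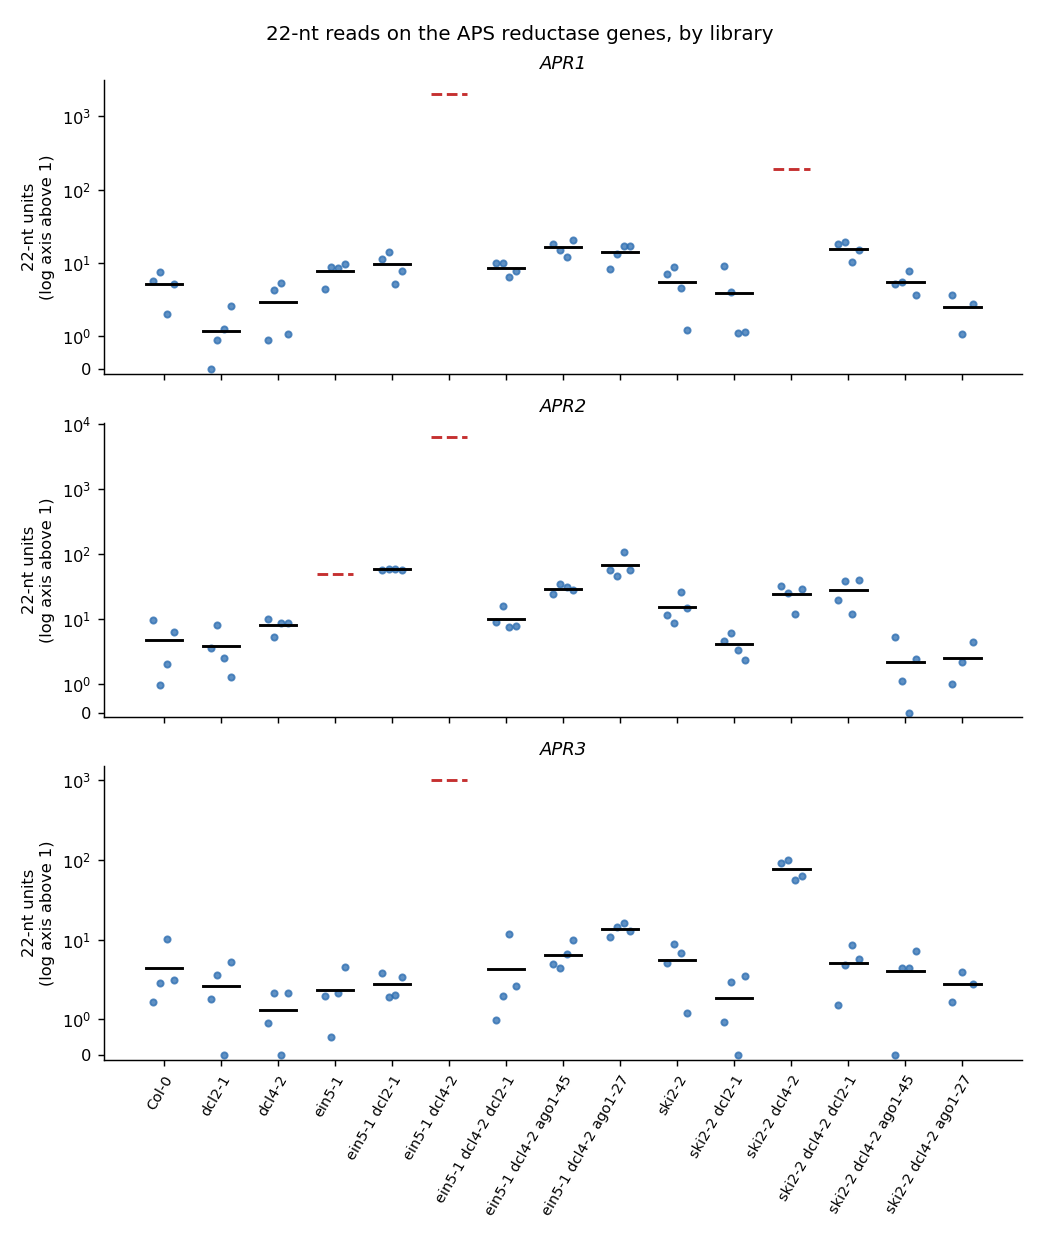
22-nt units of APR1, APR2 and APR3 in each library of the 15 genotypes, on an axis that is linear below 1 and logarithmic above. Points are libraries A to D from left to right, black bars are the authors' means, and red dashed bars are means with no library values. APR3 in ski2-2 dcl4-2 sits between 55.5 and 100.2 units, above every other library shown for APR3.

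With DCL2 lost as well, the reductase levels of ein5-1 dcl4-2 were low. In ein5-1 dcl4-2 dcl2-1 the libraries held 9.84, 9.93, 6.35 and 7.79 units of APR1, 8.86, 15.9, 7.40 and 7.79 of APR2 and 0.984, 1.99, 11.6 and 2.60 of APR3. The means are 0.415%, 0.157% and 0.428% of those in ein5-1 dcl4-2. The authors' deposited table lists log2 folds of -7.67 for APR1 (adjusted p = 4.65e-182), -9.06 for APR2 (adjusted p = 1.96e-292) and -7.55 for APR3 (adjusted p = 1.15e-35), beside 16.7% of all genes called lower and a median of -0.72. Libraries A and B of ein5-1 dcl4-2 dcl2-1 were more like each other than like C and D over all genes, with a chi-square per gene of 1.49 between A and B, 2.00 between C and D and 2.08 to 2.27 across. APR1 and APR2 were low in all 4, and APR3 was highest in C.

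With dcl2-1 added to ski2-2 dcl4-2, APR1 and APR3 fell and APR2 was not called. In ski2-2 dcl4-2 dcl2-1 the libraries held 19.7, 38.4, 11.97 and 39.5 units of APR2, a range that overlaps with that of ski2-2 dcl4-2, and the mean was 112% of it. The difference was 0.10 (SE 0.34, limma adjusted p = 0.897). APR3 fell, to 1.52, 4.80, 8.55 and 5.64 units, with a difference of -3.78 (SE 0.37, limma adjusted p = 7.18e-19). APR1 held 18.2, 19.2, 10.3 and 15.03 units, and the authors' deposited table lists a log2 fold of -3.67 (adjusted p = 5.79e-35). Limma called 3 of 8 genes higher and 2 lower in this comparison, beside 7.19% and 4.34% of all genes, and 7.30% were called lower in the deposited table. All 4 libraries of APR1 still lay above the highest Col-0 library.

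With DCL4 present, the effect of dcl2-1 on APR2 was read in each decay mutant. In ein5-1 dcl2-1 the libraries held 56.9, 57.8, 58.2 and 57.0 units, close to the mean of 48.8 in ein5-1. The difference from ein5-1 was 0.25 (adjusted p = 0.316) with 1 combination of the ein5-1 reads and 0.84 (adjusted p = 1.36e-05) with the other, by limma and chosen after seeing the data. In ski2-2 dcl2-1 the libraries held 4.61, 5.95, 3.37 and 2.30 units, all below those of ski2-2, and the difference was -1.62 (SE 0.42, limma adjusted p = 0.00368), beside 3.69% of all genes called lower. That call is lost without ski2-2 library C (difference -1.34, adjusted p = 0.0789).

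With either ago1 allele the reductase means were lower than in ein5-1 dcl4-2. In ein5-1 dcl4-2 ago1-45 the means of APR1, APR2 and APR3 were 16.4, 29.1 and 6.41 units, or 0.805%, 0.456% and 0.638% of those in ein5-1 dcl4-2. In ein5-1 dcl4-2 ago1-27 they were 14.0, 66.2 and 13.5 units, or 0.685%, 1.04% and 1.34%. These percentages are ratios of the authors' means without a test. APR2 in ein5-1 dcl4-2 ago1-27 held 56.5, 45.0, 107 and 56.0 units, overlapping with ein5-1 dcl2-1 and above every library of ein5-1 dcl4-2 dcl2-1.

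In the ski2-2 dcl4-2 background the libraries allow the test. In ski2-2 dcl4-2 ago1-45, APR2 held 5.20, 1.09, 0 and 2.41 units and APR3 0, 4.37, 4.41 and 7.24. APR2 changed from ski2-2 dcl4-2 by -3.21 (SE 0.51, limma adjusted p = 2.69e-07), and APR3 changed by -4.27 (SE 0.39, limma adjusted p = 3.18e-16). In ski2-2 dcl4-2 ago1-27, with 3 libraries, APR2 held 0.991, 2.16 and 4.38 units and changed by -2.88 (SE 0.45, limma adjusted p = 1.58e-05), and APR3 held 1.65, 3.96 and 2.79 and changed by -4.36 (SE 0.32, limma adjusted p = 9.93e-12). APS4 was lower as well with each allele, so that limma called 3 of 8 genes lower for ago1-45, beside 14.2% of all genes, and 3 of 8 for ago1-27, beside 8.70%. APR1 in these genotypes had means of 5.50 and 2.50 units.

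Ranked over the 15 genotypes, APR2 thus went from 6374 units in ein5-1 dcl4-2 to a group of ein5-1 dcl4-2 ago1-27, ein5-1 dcl2-1 and ein5-1 at 66.2, 57.5 and 48.8 units, whose libraries overlap. Next came ein5-1 dcl4-2 ago1-45 with a mean of 29.1 units, then ski2-2 dcl4-2 dcl2-1 with 27.4 and its parent ski2-2 dcl4-2 with 24.4, also with overlapping libraries. APR1 and APR3 had ein5-1 dcl4-2 and ski2-2 dcl4-2 at the top, and no other genotype had a mean above 16.4 units for APR1 or 13.5 for APR3.

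The ATP sulfurylases, which carry out the step before the reductases, had no mean above 51.5 units in any genotype. APS1 (chr3:8112614-8115024), one of the plastid isoforms, had the highest level of the 4 in Col-0, with 9.76, 17.0, 14.3 and 27.0 units. In ein5-1 dcl4-2 it held 47.6, 59.0, 50.9 and 48.5 units, all above Col-0, and the difference was 1.62 (SE 0.26, limma adjusted p = 3.87e-05). When the authors' deposited log2 folds are centred on the median of all genes, the value is 0.30 and the call is lost. It is kept at 0.95 (adjusted p = 0.00418) with quantile normalization and at 0.74 (adjusted p = 0.0372) with microRNA loci as the scale. In ein5-1 dcl4-2 dcl2-1 APS1 was lower than in ein5-1 dcl4-2, at 29.5, 13.9, 29.6 and 19.5 units, with a difference of -1.18 (SE 0.27, limma adjusted p = 0.00150), and with MIR395a limma called 2 of 6 genes lower, beside 21.2% of all genes. Centred on the median of the deposited folds, this value is -0.22 and the call is lost. In ein5-1 dcl4-2 ago1-27 the difference was -1.32 (SE 0.28, limma adjusted p = 3.34e-04), and with APS4 (-2.05, SE 0.65, adjusted p = 0.0178) limma called 2 of 6 genes lower, beside 17.3% of all genes. In ein5-1 dcl4-2 ago1-45 it was -0.55 (SE 0.21, limma adjusted p = 0.0435), beside 22.3% of all genes called lower. The call is lost with microRNA loci as the scale (-0.24, adjusted p = 0.478), and the value turns to 0.23 with quantile normalization. This APS1 call is lost in 5 of the 8 fits that leave out 1 library, and that of APS4 in 3 of 8. With quantile normalization APS4 is also lost (-1.54, adjusted p = 0.110).

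In ski2-2 dcl4-2 APS1 held 15.5, 8.35, 18.97 and 18.97 units, within the range of Col-0 in all but library B. In ski2-2 dcl4-2 dcl2-1 it was higher, at 30.3, 41.6, 54.7 and 65.8 units, all above the highest of ski2-2 dcl4-2, with a difference of 1.58 (SE 0.32, limma adjusted p = 3.18e-05). APS3 (chr4:8413263-8415650) went the same way, from 0, 1.39, 4.38 and 0 units to 6.07, 4.80, 22.2 and 11.3, with a difference of 2.46 (SE 0.71, limma adjusted p = 0.00871), a call that is lost without ski2-2 dcl4-2 dcl2-1 library C (difference 2.07, adjusted p = 0.1002) and with a pseudocount of 0.1 (adjusted p = 0.0782). APS2 (chr1:6914518-6916823), the isoform that is also found in the cytosol, held 9.10, 9.59, 8.55 and 16.9 units in ski2-2 dcl4-2 dcl2-1, its highest genotype. Its difference of 1.83 (SE 0.64, limma adjusted p = 0.0401) is lost in 6 of the 8 fits that leave out 1 library, and also with a pseudocount of 0.1, no filter and quantile normalization. The folds the authors deposited do not call it either, centred or not (adjusted p = 0.158 and 0.0956).

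APS4 (chr5:17589394-17591737), which holds the site closest to miR395a, was the 1 sulfurylase higher in ski2-2 dcl4-2 than in Col-0. It held 12.2, 5.57, 11.7 and 18.97 units there, from 11, 4, 8 and 4 reads, against 4.07, 1.89, 3.07 and 2.08 in Col-0. The groups do not overlap, and the difference was 1.73 (SE 0.52, limma adjusted p = 0.0182). The call is lost without ski2-2 dcl4-2 library A (difference 1.69, adjusted p = 0.0525) and with microRNA loci as the scale (0.73, adjusted p = 0.314). In ski2-2 dcl4-2 ago1-45 APS4 held 1.04, 2.19, 0 and 0 units, a difference of -2.93 (SE 0.61, limma adjusted p = 9.99e-05), and in ski2-2 dcl4-2 ago1-27 it held 0.991, 0.720 and 0.797, a difference of -2.73 (SE 0.54, limma adjusted p = 4.49e-04). In ein5-1 dcl4-2 it held 7.44, 6.38, 1.82 and 9.10 units, overlapping with Col-0, and was not called (limma adjusted p = 0.221).

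Between ein5-1 dcl4-2 and ski2-2 dcl4-2, APS1 was 1.73 higher in the former (SE 0.30, limma adjusted p = 9.95e-05), beside 20.3% of all genes called higher. APS3 was called by a small margin (adjusted p = 0.0460) and lost in 6 of 8 fits that leave out 1 library, and with quantile normalization (0.95, adjusted p = 0.388). In ein5-1 dcl2-1 against ein5-1, APS1 was 0.67 higher (SE 0.20, limma adjusted p = 0.0128), beside 6.68% of all genes. With microRNA loci as the scale this value turns to -0.21, and the call is lost without ein5-1 library B (0.54) or ein5-1 dcl2-1 library B (0.55), with quantile normalization (0.52, adjusted p = 0.0885) and with all 15 genotypes in 1 fit (adjusted p = 0.264).

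**Figure D3:**
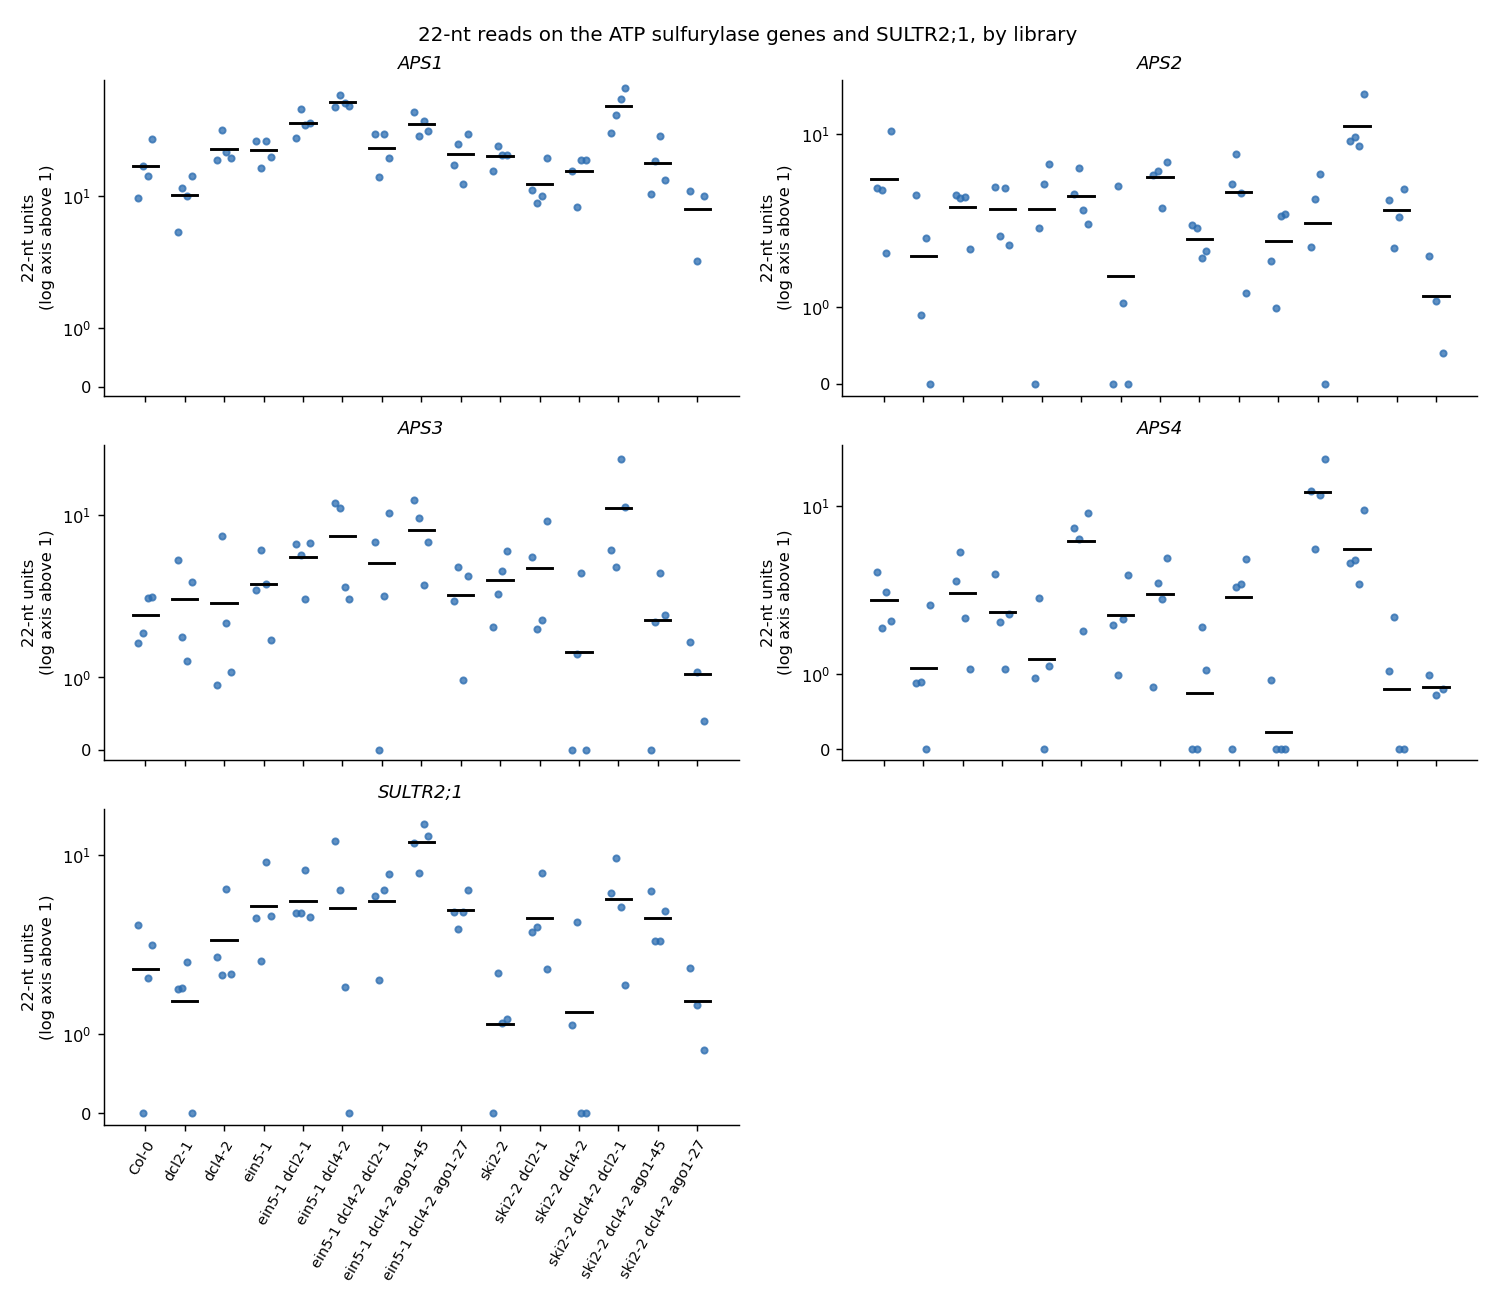
22-nt units of APS1, APS2, APS3, APS4 and SULTR2;1 in each library of the 15 genotypes, on an axis that is linear below 1 and logarithmic above. Points are libraries A to D from left to right and black bars are the authors' means. No mean exceeds 51.5 units, and APS4 is highest in ski2-2 dcl4-2 at 12.1 units.

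SULTR2;1 (chr5:3193017-3197136), the transporter, stayed between 1.13 units in ski2-2 and 11.8 units in ein5-1 dcl4-2 ago1-45. In the latter its libraries held 11.6, 7.85, 14.9 and 12.8 units, against 11.9, 6.38, 1.82 and 0 in ein5-1 dcl4-2. Both groups overlap, the difference was 1.63 (SE 0.51, limma adjusted p = 0.0128), beside 3.36% of all genes called higher, and the call is lost without ein5-1 dcl4-2 library C (difference 1.452) or D (0.95) or ein5-1 dcl4-2 ago1-45 library C (1.51), or with a pseudocount of 0.1 (adjusted p = 0.0899). No other comparison called SULTR2;1 by limma. In ein5-1 dcl4-2 against Col-0 its difference was 0.52 (SE 0.71).

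MIR395a, the microRNA locus, had no read in Col-0, dcl4-2 and ski2-2 and 1 read in ein5-1. It was higher in both double mutants with dcl4-2 and highest with ago1-27. In ein5-1 dcl4-2 the libraries held 11.9, 9.57, 14.5 and 24.3 units, from 8, 6, 8 and 8 reads, and in ski2-2 dcl4-2 they held 11.1, 18.1, 16.1 and 9.48, from 10, 13, 11 and 2 reads. Every library of both double mutants lay above every library of their parents and of Col-0. With Col-0 set to 3 reads over the group, the mean was at least 19.3-fold higher in ein5-1 dcl4-2 (limma adjusted p = 1.99e-06) and at least 17.6-fold higher in ski2-2 dcl4-2 (limma adjusted p = 2.11e-06). Between the double mutants the difference was 0.09 (SE 0.43, limma adjusted p = 0.898), beside ratios of means of 10.7 for APR1 and 13.04 for APR3. The interaction of ein5-1 and dcl4-2 was called for MIR395a alone among the 6 genes tested, beside 18.4% of all genes called higher. A count of 1 in 6 is close to that share and does not set these genes apart. APR1, APR2 and APR3 were not among the 6, since their libraries in ein5-1 dcl4-2 were not recovered.

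With dcl2-1 added, MIR395a fell in the ski2-2 dcl4-2 background, while its call in that of ein5-1 dcl4-2 depended on the processing. In ski2-2 dcl4-2 dcl2-1 it held 0, 0, 3.42 and 0 units, with a difference of -3.30 (SE 0.70, limma adjusted p = 1.18e-04). In ein5-1 dcl4-2 dcl2-1 it held 5.91, 5.96, 1.06 and 10.4 units, with a difference of -1.39 (SE 0.51, limma adjusted p = 0.0443) that is lost in 7 of the 8 fits leaving out 1 library. The authors' deposited table lists -1.10 for it (adjusted p = 0.174), and with quantile normalization it is -0.59 (adjusted p = 0.443). Centred on the median of the deposited folds, -0.72, the value is -0.38 and the call is lost.

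The highest levels of MIR395a were in the genotypes with ago1-27. In ein5-1 dcl4-2 ago1-27 the libraries held 82.1, 121, 131 and 79.3 units, from 138, 126, 137 and 75 reads. All exceeded the highest library of ein5-1 dcl4-2, and the difference was 2.74 (SE 0.27, limma adjusted p = 1.58e-11), beside 3.01% of all genes called higher. In ski2-2 dcl4-2 ago1-27 they held 72.0, 41.8 and 71.3 units, from 218, 116 and 179 reads, a difference of 2.09 (SE 0.29, limma adjusted p = 2.61e-06), beside 4.97%. With ago1-45 MIR395a was not called higher, and the other trio, which differed, is given below. In ein5-1 dcl4-2 ago1-45 MIR395a held 4.98, 4.36, 7.43 and 6.87 units, a difference of -1.16 (SE 0.40, limma adjusted p = 0.0238) that is lost without ein5-1 dcl4-2 library D (-0.92) or ein5-1 dcl4-2 ago1-45 library A (-1.10) or B (-1.05). It is also lost with quantile normalization (-0.30, adjusted p = 0.697), with microRNA loci as the scale (-0.88, adjusted p = 0.119) and with all 15 genotypes in 1 fit (adjusted p = 0.0578). In ski2-2 dcl4-2 ago1-45 it held 7.28, 6.56, 3.31 and 10.9 units (difference -0.92, SE 0.44, limma adjusted p = 0.125). The contrast of the 2 ago1 alleles was not tested, and in each background their libraries do not overlap.

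MIR395b stands here for its trio, which gives the second 22-base read. It had a mean of 0.260 units in Col-0, 60.4 in ein5-1 dcl4-2 ago1-27 and 10.3 in ski2-2 dcl4-2 ago1-27. Against ein5-1 dcl4-2 the difference in ein5-1 dcl4-2 ago1-27 was 4.35 (SE 0.41, limma adjusted p = 2.80e-12). In ski2-2 dcl4-2 it had no read in any library, where MIR395a had 36 reads in all. With ago1-45 its mean was 9.32 units, against 2.46 in ein5-1 dcl4-2, and 2.72 units against 0 in ski2-2 dcl4-2. Of the 5 MIR395 loci other than MIR395a, limma called 3 higher and 2 lower in the former, beside 3.36% and 22.3% of all genes. In the latter it called 3 higher and 0 lower, where 907 of 13309 genes were called higher. Loci of a trio share their reads and are not separate results. In dcl2-1 MIR395b held 7.10, 2.68, 2.51 and 5.16 units, all above the Col-0 libraries at 0, 0, 0 and 1.04, with a difference of 2.08 (SE 0.61, limma adjusted p = 0.0183), beside 3.41% of all genes called higher. The median difference of all genes there was -0.03, and -0.82 with microRNA loci as the scale, so microRNA loci summed were also higher in dcl2-1. Other scales and left-out libraries were not examined for MIR395b.

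**Figure D4:**
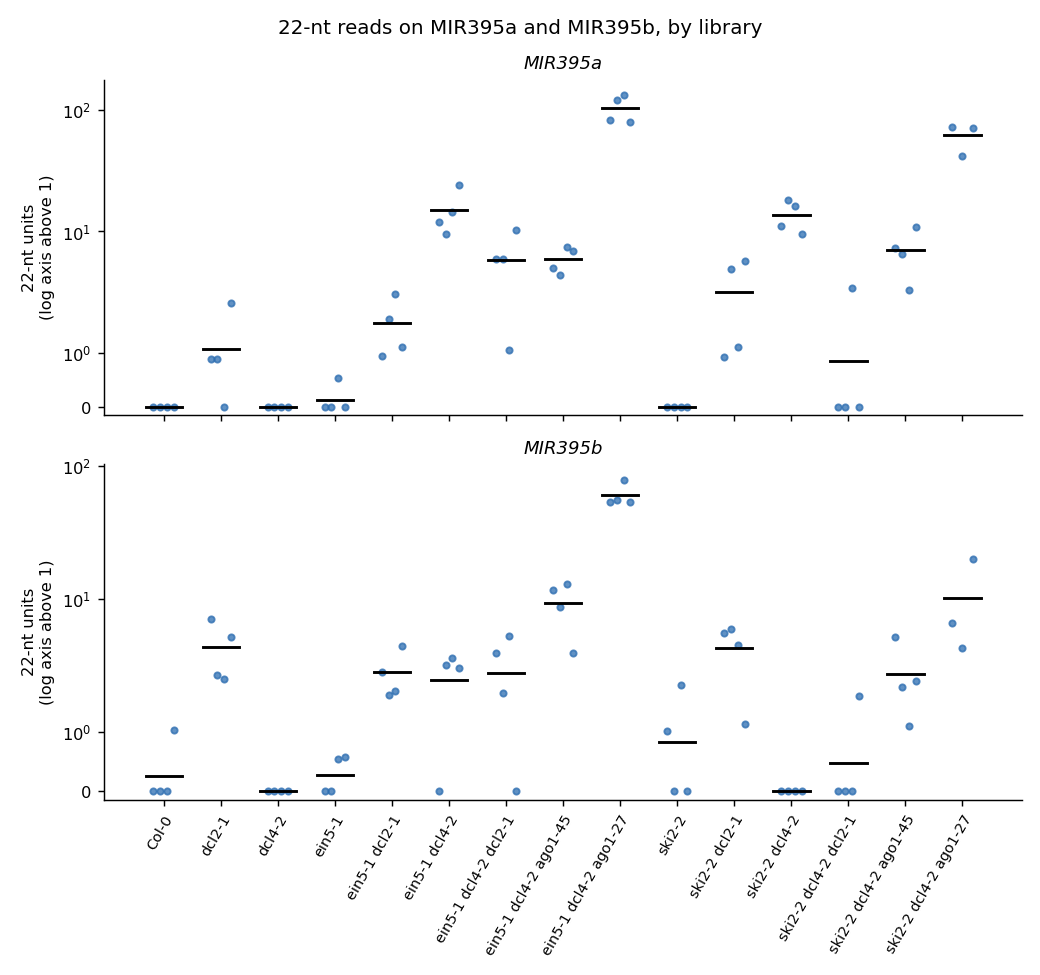
22-nt units of MIR395a and MIR395b in each library of the 15 genotypes, on an axis that is linear below 1 and logarithmic above. Points are libraries A to D from left to right and black bars are the authors' means. MIR395a lies at 0 in every library of Col-0, dcl4-2 and ski2-2 and between 79.3 and 131 units in ein5-1 dcl4-2 ago1-27.

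Other genes of sulfur metabolism were followed as a list of 32, with sulfate transporters, sulfite reductase, kinases of adenosine 5′-phosphosulfate, serine acetyltransferases, O-acetylserine lyases, glutathione synthesis genes, regulators and sulfur starvation markers. The list was chosen with earlier results of these data known, so its counts are a description and not a test. SERAT2;1, LSU2 and SULTR3;5, named below, were picked for the largest folds of the list in these data. Between ein5-1 dcl4-2 and Col-0 limma called 14 higher and 1 lower of 24 tested, with a median difference of 2.22 against 0.89 over all genes, beside 30.4% of all genes called higher and 3.44% lower. Against Col-0, 15 of the list passed the filter for ein5-1 and 14 for dcl4-2. More of it thus entered the fit with ein5-1 dcl4-2, which bears on the share called and on the median. The authors' deposited table called 16 higher and 1 lower of 29, beside 21.1% of all genes called higher and 4.44% lower. Between ski2-2 dcl4-2 and Col-0 limma called 0 higher and 1 lower of 17, with 1 higher and 2 lower at an unadjusted p under 0.05, and the deposited table also called 0 higher and 1 lower of 17. Of all genes 5.19% were called lower by limma and 7.74% in the deposited table. Of 25 tested between the double mutants, 16 were higher in ein5-1 dcl4-2 and 0 lower, beside 20.3% of all genes called higher.

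SERAT2;1, a plastid serine acetyltransferase that supplies O-acetylserine for cysteine synthesis, was the highest of the list in ein5-1 dcl4-2. Its mean there was 327 units, against 0.723 in Col-0, and the authors' deposited table lists a log2 fold of 8.31 (adjusted p = 3.83e-28). Its mean was 60.3 units in ein5-1, and in ein5-1 dcl2-1 its libraries held 79.6, 77.7, 74.5 and 86.0 units. In ski2-2 dcl4-2 SERAT2;1 held 3.33, 1.39, 4.38 and 4.74 units and was not called against Col-0 (limma adjusted p = 0.175).

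LSU2, a gene that responds to low sulfur, held 40.2, 35.1, 32.7 and 24.3 units in ein5-1 dcl4-2 and at most 1.04 in Col-0, and the difference was 4.32 (SE 0.43, limma adjusted p = 3.28e-08). SULTR3;5, a transporter that acts with SULTR2;1 in the root vasculature, held 16.4, 12.8, 20.0 and 18.2 units in ein5-1 dcl4-2 against 0.813, 0, 0 and 0 in Col-0, a difference of 3.92 (SE 0.49, limma adjusted p = 1.11e-06). SULTR1;1, a high-affinity uptake transporter, was the 1 gene of the list called lower in both double mutants. It held 33.3, 28.3, 36.9 and 36.4 units in Col-0, then 2.97, 7.97, 10.9 and 0 in ein5-1 dcl4-2 and 4.44, 1.39, 18.97 and 4.74 in ski2-2 dcl4-2. The differences were -2.93 (SE 0.52, limma adjusted p = 1.25e-04) and -2.47 (SE 0.40, limma adjusted p = 1.49e-06). In ein5-1 dcl4-2 dcl2-1 SULTR1;1 held 20.7, 36.7, 28.6 and 38.9 units, higher than in ein5-1 dcl4-2 by 2.79 (SE 0.54, limma adjusted p = 1.96e-04), beside 2.91% of all genes called higher.

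**Figure D5:**
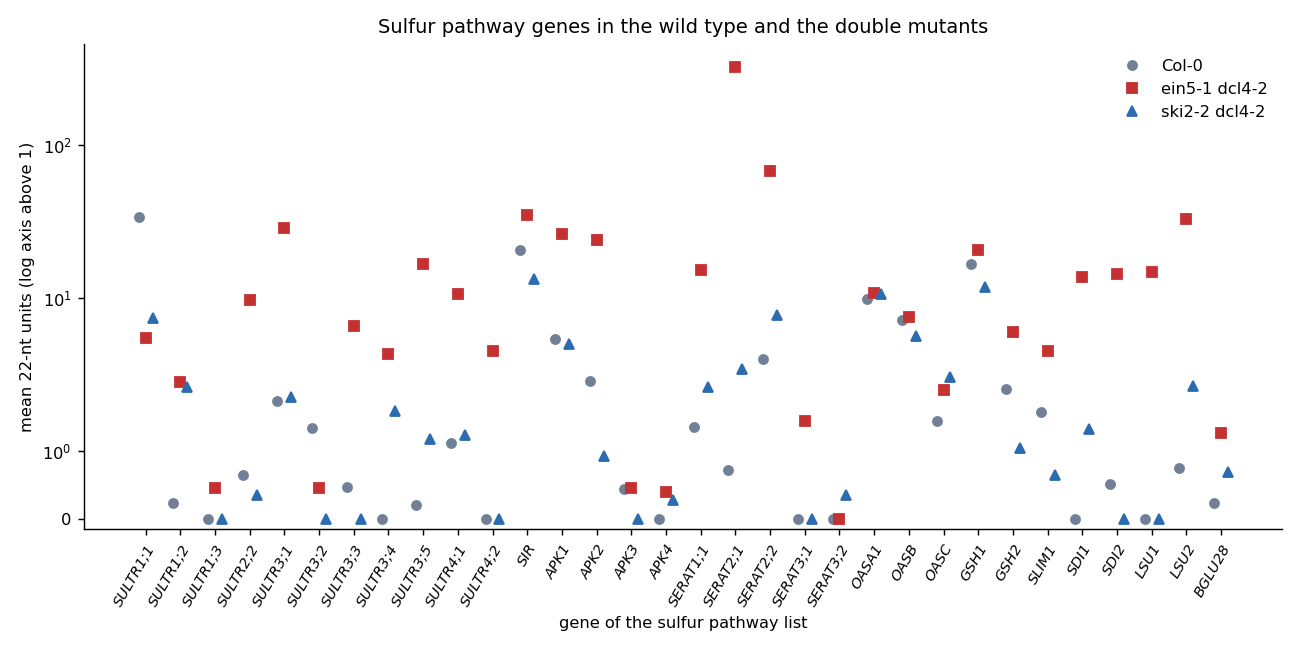
Authors' means of the 32 sulfur genes outside the 9 in Col-0, ein5-1 dcl4-2 and ski2-2 dcl4-2, on an axis that is linear below 1 and logarithmic above. SERAT2;1 reaches 327 units in ein5-1 dcl4-2, and SULTR1;1 lies lower in both double mutants, at 5.46 and 7.39 units, than in Col-0 at 33.7.

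Among 2886 genes with a mean of at least 10 units over the 15 genotypes, those most like each of 3 genes in log2(mean + 1) were sought, as a description of shared pattern over genotypes that share one scale. APR2 was most like ADT4 (Pearson r = 0.98), an arogenate dehydratase, 4CL1 (r = 0.97), a phenylpropanoid enzyme, and SERAT2;2 (r = 0.97), a mitochondrial serine acetyltransferase. The genotype ein5-1 dcl4-2 weighs heavily in these values. ADT4 and 4CL1 were at 7342 and 11730 units there and at 44.4 and 31.5 in ein5-1. How far r rests on that genotype was not tested. APR1 was most like PXY (r = 0.97), a receptor kinase of the vascular cambium, AT5G52882 (r = 0.97) and GSL11 (r = 0.96). MIR395a was most like MIR395e and MIR395d, which share its read, and then MIR399a (r = 0.94), a microRNA locus known for its response to low phosphate. Among the 9 genes, APR1 and APR3 had r = 0.96, APR1 and APR2 0.86, and MIR395a had 0.21 with APR2, 0.34 with APR1, 0.41 with APR3 and -0.16 with APS1.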

How the data were processed

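The authors deposited 1 table with, for 15 genotypes, the mean signal of 22-nt reads per gene, named TPM per the file headers. Sums over genes differ between columns, so the denominator is unknown and the values are called units. For 8 comparisons the same deposited table gives log2 folds, each with a p-value before and after adjustment, made by the authors with DESeq2 per the submitters' processing notes, which also name TAIR10, Bowtie 1.2.2 and SAMtools 1.9. How reads with several positions or either strand were counted is not given in the sources used here.

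A count test had been planned. The table holds means of scaled signal, so limma was used instead. Values per library were recovered with Python 3.11.15: a mean is a sum of whole reads times a step for each library, and it was accepted where 1 combination matched within 1.0 unit of the last printed digit. This gave 97.9 to 99.95% of genes per genotype; recovered means reach from 52.5 units in ein5-1 to 821 in ski2-2 dcl4-2 ago1-45, and higher genes are outside the limma tests, so the shares of all genes called leave out the most abundant ones. The steps imply 210875 to 3027587 reads as denominators. No 2 libraries of a genotype were alike within sampling noise (chi-square per gene 1.2 to 2.28). Recovery and tests were checked on simulated data.

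Limma 3.58.1 in R 4.3.3 was run with a trend on log2(units + 1), for 19 comparisons and 2 interactions, on genes recovered in each group with a mean of at least 1 unit, with Benjamini-Hochberg adjustment over all genes tested and a threshold of 0.05. The groups compared enter each fit. Differences on this scale understate the change of low genes. Where limma could not be used for one of the 9 genes, the authors' value is given. The labels do not say that libraries came from separate plants, so p-values measure the spread between libraries only, and counting error limits values of few reads. The genes and lists, and the rule for names, were chosen with earlier results of these data known: all 9 genes, the MIR395 loci, the 3 of the sulfur list with the largest folds and the 3 genes most like MIR395a and the 2 most abundant reductases. SULTR1;1 was named after its values were seen. Alternatives were other pseudocounts, filters and scales, all 15 genotypes in 1 fit, centred deposited folds and leaving out each library.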

Additional observations from a re-analysis of the deposited data

Results flagged for a closer look

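In groups of 4 libraries, 1 library was set apart from the rest by Dixon's criterion in 8 of 121 groups, and chance gives about 1 in 20. In 4 of the 8, the library that stood apart held 2 reads or fewer. These were APS2 in dcl4-2 library D at 2.15 units, APS4 in ski2-2 dcl2-1 library A at 0.922, MIR395a in ein5-1 library C at 0.538 and MIR395a in ski2-2 dcl4-2 dcl2-1 library C at 3.42. The others were APS2 in ski2-2 dcl4-2 dcl2-1 library D at 16.9 units against 8.55 to 9.59, APR3 in ein5-1 dcl4-2 dcl2-1 library C at 11.6 against 0.984 to 2.60, SULTR2;1 in dcl4-2 library C at 6.46 against 2.12 to 2.67 and SULTR2;1 in ein5-1 dcl2-1 library C at 8.17 against 4.47 to 4.74.

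The effect of dcl4-2 on MIR395a was larger with ein5-1 or with ski2-2 than without a decay mutation. On APR3 it was larger with ski2-2 than without. For APR1, APR2 and APR3 the interaction with ein5-1 was not tested, since their libraries in ein5-1 dcl4-2 were not recovered. The interaction of ein5-1 and dcl4-2 was 3.77 for MIR395a (SE 0.66, limma adjusted p = 9.45e-05). The interaction of ski2-2 and dcl4-2 was 4.90 for APR3 and 3.83 for MIR395a (SE 0.81, limma adjusted p = 7.79e-04). Since MIR395a had no read in Col-0, dcl4-2 and ski2-2, the size of its fitted values depends on the pseudocount. For the same reason its interactions restate pairwise differences and are no further evidence. The value with ski2-2 is also 3.83 for ski2-2 dcl4-2 against ski2-2, and that with ein5-1 is also 3.77 for ein5-1 dcl4-2 against ein5-1.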

How the results depend on the processing

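No paired analysis was possible because the deposited columns are means and the recovered libraries carry no replicate number. Of 63 results on single genes, 44 were kept under every alternative and every library left out that could be tried. The 63 include APR2 in ein5-1 against Col-0 and in ein5-1 dcl2-1 against ein5-1, which are ratios of means and not calls. Both are among the 44, although the second passes the threshold with only 1 read combination of ein5-1. For reductase calls taken from the authors' deposited folds, centring was the only alternative and no library could be left out. The number of the 9 genes called moved as follows. With a pseudocount of 0.1, ski2-2 against Col-0 went from 1 to 0 and ein5-1 dcl4-2 against ski2-2 dcl4-2 from 2 to 1, as it did with no filter and with a mean of at least 5 units. That filter took the ein5-1 interaction from 1 to 0 and the ski2-2 interaction from 2 to 1, since fewer genes are tested. With microRNA loci as the scale, dcl2-1 against Col-0 went from 0 to 5, ski2-2 dcl2-1 against ski2-2 from 1 to 3, ein5-1 dcl2-1 against ein5-1 from 1 to 0 and ein5-1 dcl4-2 ago1-45 against ein5-1 dcl4-2 from 3 to 1. Quantile normalization gave 0 and 1 for the last pair, as did a fit of all 15 genotypes, which gave 1 for dcl2-1 and 2 for ski2-2 dcl2-1. Centring the deposited folds took ein5-1 dcl4-2 dcl2-1 against ein5-1 dcl4-2 from 5 to 3. Only APS1 turned: to -0.11 against ein5-1 and -0.10 against dcl4-2 in ein5-1 dcl4-2 (centred), to -0.21 in ein5-1 dcl2-1 (microRNA scale) and to 0.23 in ein5-1 dcl4-2 ago1-45 (quantile). The cause was not tested.

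Leaving out 1 library gave 0 to 0 for dcl2-1, dcl4-2 and ein5-1 and 0 to 1 for ski2-2 against Col-0. It gave 5 to 6 for ein5-1 dcl4-2 against Col-0, ein5-1 and dcl4-2 alike, 4 to 5 for ski2-2 dcl4-2 against Col-0 and dcl4-2, and 3 to 4 against ski2-2. Adding dcl2-1 gave 4 to 5 for ein5-1 dcl4-2, 4 to 6 for ski2-2 dcl4-2 and 0 to 1 for ein5-1 and ski2-2. In these counts for ein5-1 dcl4-2, APR1, APR2 and APR3 stand as fixed calls from the authors' deposited table. In those for ski2-2 dcl4-2, APR1 does. No library was left out for a fixed call. Of the 5 main calls in each of these ein5-1 dcl4-2 comparisons, limma made 2, and only the genes tested by limma were refitted. The ago1-45 comparisons gave 1 to 3 and 3 to 4, those of ago1-27 2 to 3 and 4 to 4, the double mutants 1 to 2 and the interactions 1 to 2 and 2 to 2.

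The higher and lower calls over all genes depend on the scale. For ein5-1 dcl4-2 against Col-0 they were 5187 and 588, with quantile normalization 2097 and 2693 and with microRNA loci as the scale 3166 and 2045, and for ski2-2 dcl4-2 against Col-0 825 and 651, with that scale 274 and 3005. APR2 in ein5-1 against Col-0, a log2 ratio of means of 3.12, was 3.41 or 2.82 with the read combinations tried after seeing the data. Few reads limit SULTR2;1, APS2, APS3 and APS4.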
